A study of Sus scrofa with 20 samples.

Results

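The DNAJ proteins are the co-chaperones of HSP70, and their transcripts were followed here in the longissimus dorsi muscle of 2 pig breeds. Members were all probe sets of the Affymetrix Porcine Snowball array annotated with a single gene symbol that begins with DNAJ, the letter A, B or C and a number, so that DNAJC5B and DNAJC5G are included. This rule gave 68 of the 45922 porcine probe sets tested and 40 of the 13609 genes named by them. The gene was represented by 1 probe set for 19 members and by several for the other 21. Where a gene is counted once, it is taken by its brightest probe set.

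Muscle of 10 Duroc and 10 PiNN pigs was hybridised, with 1 array per animal. Both breeds came as adult purebred animals from commercial lines and received no treatment in the sources used here. PiNN denotes Pietrain pigs homozygous negative for the malignant hyperthermia mutation of the ryanodine receptor gene RYR1. The sample titles place the muscle sampling 24 h ahead of slaughter, whereas the methods of the study describe tissue collected once the animals had been slaughtered, and this was not resolved. Breed and breeding line cannot be told apart. Each animal is named below by its breed and number.

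All J proteins carry a J domain, which binds HSP70 and stimulates it to hydrolyse ATP, so that the chaperone closes on an unfolded client. Class A and B members mostly bind clients themselves and hand them over. Class C members share only the J domain, and many recruit HSP70 to one site, such as the lumen of the endoplasmic reticulum, the mitochondrial import motor, a clathrin-coated vesicle or the ribosome. In muscle the family is best known through DNAJB6, in which human mutations cause a limb girdle muscular dystrophy.

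Signals are log2 values as deposited by the authors, and differences are Duroc minus PiNN on that scale. Breeds were compared with limma (two-sided, 20 animals), and a probe set was called at a Benjamini-Hochberg adjusted p under 0.05 over all 45922 probe sets. Array medians lay between 4.61 and 4.73. The 69 background probe sets of the array averaged 3.93, and the mean signal was above this level for 55 of the 68 DNAJ probe sets and for 37 of the 40 genes. Markers of skeletal muscle fibres (9 of 10 measured, for instance ACTA1 and CKM) gave a log2 summed level of 16.09 to 16.30 in Duroc and 16.09 to 16.32 in PiNN, and none of them was called by limma (1 with an unadjusted p under 0.05). None of the 4 adipocyte, 4 endothelial, 4 fibroblast and 3 leukocyte markers measured was called either, with 1 endothelial and 1 fibroblast marker at an unadjusted p under 0.05. Of the red blood cell markers 2 of 4 were measured, and their summed log2 level was 5.78 to 8.34 in Duroc and 7.02 to 9.23 in PiNN. ALAS2, which starts haem synthesis in red cells, was higher in PiNN (-0.51, adjusted p = 0.0327), and the haemoglobin gene HBB differed by -1.16 (adjusted p = 0.0527). The part of blood in the DNAJ results was not tested. In whole muscle, fewer cells of a type and less RNA per cell cannot be told apart.

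The breeds differed at a small set of DNAJ genes, most of the called ones higher in Duroc. Called were 8 of the 68 DNAJ probe sets (11.8%), against 4.17% of all probe sets tested. Of these, 7 were higher in Duroc, against 2.76% of all probe sets, and 1 was higher in PiNN, against 1.41%. The split of 7 to 1 was not fixed: it was 5 to 2 by the ANOVA of the methods or with median centring, 6 to 1 with quantile normalization or the array background as a covariate, 6 to 3 by q-values, 7 to 3 with only probe sets above background, 9 to 3 with array weights and 5 to 3 without PiNN 49 and 62. Over all probe sets the split was 1268 to 649, but 1053 to 1120 with the array background as a covariate and 1377 to 1177 without PiNN 49 and 62. By the brightest probe set, 6 of the 40 genes were called (15%), against 6.39% of all named genes. DNAJC21, DNAJC10, DNAJC13, DNAJC28 and DNAJB14 were higher in Duroc (5 of 40, against 4.06% of named genes) and DNAJB6 was higher in PiNN (1 of 40, against 2.33%). With any probe set of the gene counted, DNAJC1 was added and 7 genes were called. The remaining 34 genes did not pass. The median difference over the 40 genes was 0.06 and its median size regardless of sign 0.19, while over all named genes these were -0.03 and 0.12. The mean was higher in Duroc for 23 of the 40 genes and higher in PiNN for 17, and with the array background as a covariate these numbers were 21 and 19. Over all named genes the mean was higher in Duroc for 43.3%. An unadjusted p under 0.05 was found for 21 of the 68 probe sets, against 17.3% of all probe sets. DNAJ probe sets were more often above background (55 of 68) than all probe sets (62.3%). With only probe sets above background tested, 10 of these 55 were called, against 2284 of all 28623. The values of the breeds overlapped for every one of the 68 probe sets, and 0.122% of all probe sets showed no overlap. No test of the family against the other genes was made.

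**Figure D1:**
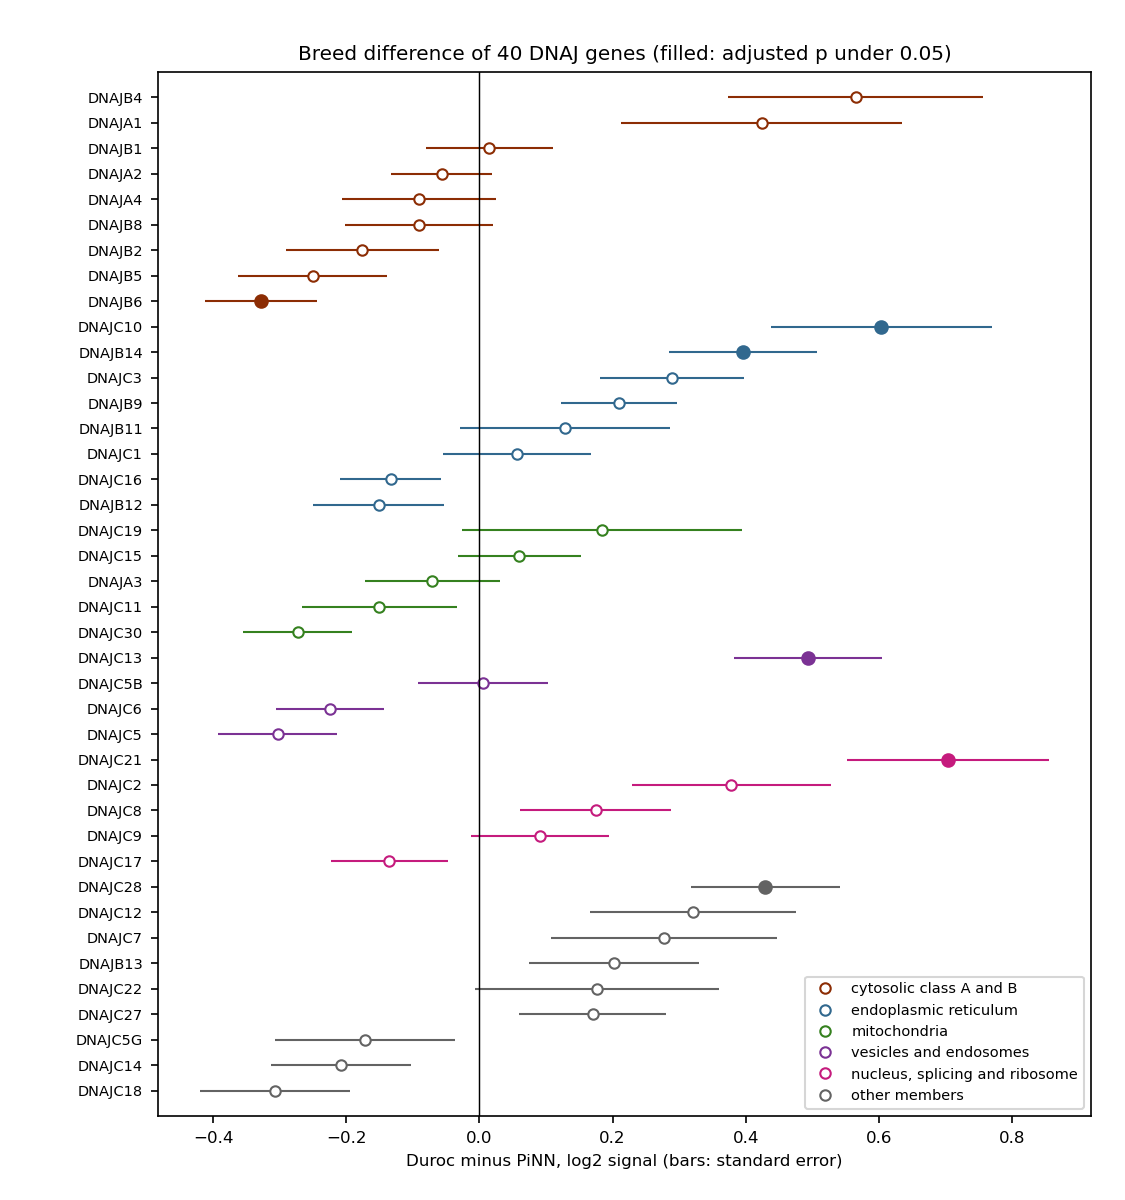
Difference between breeds (Duroc minus PiNN, log2 signal, horizontal axis) for the brightest probe set of each of the 40 DNAJ genes, grouped by cellular site, with the standard error as a bar and filled points for an adjusted p under 0.05. The 6 filled points are DNAJC21, DNAJC10, DNAJC13, DNAJC28 and DNAJB14 on the Duroc side and DNAJB6 on the PiNN side.

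Counts moved with the animals in the fit. The number of called DNAJ probe sets fell to 4 without Duroc 46, PiNN 22 or PiNN 36 and to 5 without Duroc 42, Duroc 59 or PiNN 35, and it was 12 without Duroc 32. For genes it was 2 without Duroc 46, PiNN 22 or PiNN 36, 3 without Duroc 42, 43 or 59 or PiNN 35, and 9 without Duroc 32. The calls over all probe sets, 1917 with every animal, also fell, to 1210 without Duroc 46, 1267 without PiNN 22, 1174 without PiNN 36, 1302 without Duroc 42, 1415 without Duroc 59 and 1507 without PiNN 35, and they rose to 2172 without Duroc 32.

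Among the J proteins that serve the cytosolic HSP70 (DNAJA1, A2, A4, B1, B2, B4, B5, B6 and B8), 1 of 9 genes was called. Of all named genes, 6.39% were called. The called cytosolic gene, DNAJB6, suppresses the aggregation of polyglutamine and other misfolded proteins. It lies on chromosome 18 of the Sscrofa11.1 genome from 1444737 to 1499904. DNAJB6 signals (SNOWBALL_019579_st, its only probe set) had a lowest value of 5.60, a median of 5.95 and a highest value of 6.26 in Duroc. The corresponding PiNN values were 5.97, 6.33 and 6.53. None of the Duroc animals reached the PiNN median, and 9 of 10 PiNN animals lay above all Duroc animals, the exception being PiNN 49 with 5.97. DNAJB6 was therefore higher in PiNN (5.99 ± 0.19 for Duroc against 6.31 ± 0.14 for PiNN, SD, n = 10 each, difference -0.33, standard error 0.08, limma adjusted p = 0.0272). The adjusted p was 0.0503 to 0.0533 without Duroc 46, PiNN 22 or PiNN 36.

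DNAJB4, a class B protein made in muscle and induced by heat, had the largest difference of the cytosolic genes, although it was not called. Duroc signals ran from 7.44 through a median of 8.40 to 8.86, and PiNN signals from 6.94 through 7.72 to 8.55. Above the PiNN median lay 8 Duroc animals, while the upper PiNN end was set by PiNN 62. The DNAJB4 difference was 0.57 (standard error 0.19, adjusted p = 0.1), with an adjusted p of 0.0339 and 0.0420 when PiNN 62 or Duroc 32 was left out, and of 0.0273 with array weights.

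DNAJA1, the main heat-inducible class A protein, varied widely within each breed. Its signals were 6.56, 7.89 and 8.11 (lowest, median, highest) in Duroc and 6.46, 7.21 and 8.70 in PiNN. Duroc 24 lay far below its breed and PiNN 62 far above, and without these animals the other 9 Duroc animals started at 7.46 and the other 9 PiNN animals ended at 7.53. The DNAJA1 difference was 0.42 (standard error 0.21, adjusted p = 0.309), and the adjusted p was 0.0472 without PiNN 62.

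The other cytosolic members were closer together or reversed in sign. DNAJB5 differed by -0.25 (adjusted p = 0.240), DNAJB2, which carries ubiquitin-binding motifs, by -0.18 (adjusted p = 0.479), and DNAJA2 by -0.06 (adjusted p = 0.783). DNAJA4 and the DNAJB6 relative DNAJB8 each differed by -0.09, with adjusted p of 0.771 and 0.759. The single probe set of DNAJB1, the classical partner of HSP70 in the heat shock response, averaged 1.54 and lay below the array background in all 20 animals. Its difference of 0.01 (adjusted p = 0.966) is thus one between signals at background level. The median difference of the 9 cytosolic genes was -0.09, and 6 of the 9 means were higher in PiNN, or 5 of 9 with the array background as a covariate.

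**Figure D2:**
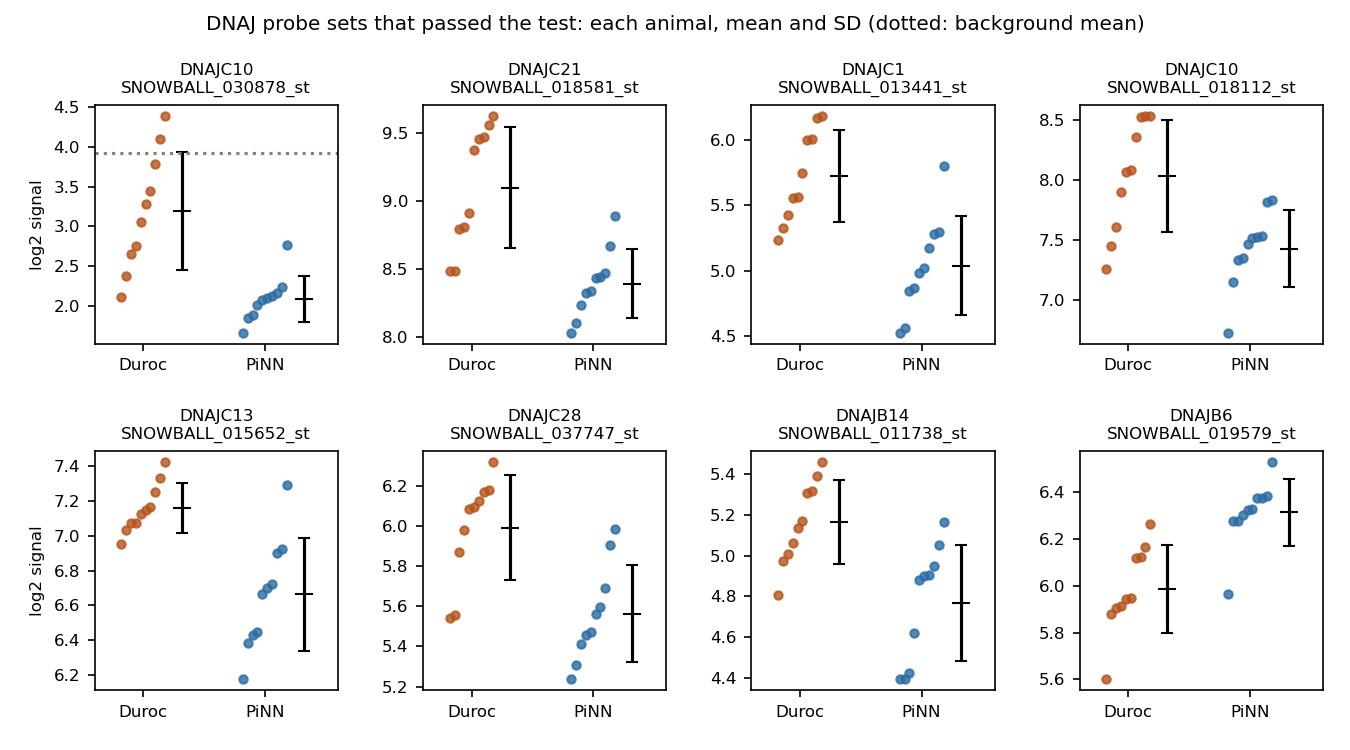
Log2 signal (vertical axis) of each animal for the 8 called DNAJ probe sets, with points ordered by value within a breed and bars giving mean and SD of 10 animals. The breeds overlap in every panel, and in the panel of DNAJC10 SNOWBALL_030878_st the dotted line of the background mean (3.93) is passed by 2 Duroc animals alone.

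In the endoplasmic reticulum, 2 of 8 genes were called, against 6.39% of all named genes, and both were higher in Duroc. J proteins of its lumen work with the HSP70 HSPA5 (BiP). The median difference of the 8 genes was 0.17 and 6 of the 8 means were higher in Duroc, or 5 of 8 with the array background as a covariate. Counts by site depend on the list used. The 8 genes leave out DNAJC14 (-0.21) and DNAJC18 (-0.31), both with a higher mean in PiNN. A reticulum list that held them would lean less towards Duroc. They were counted with the members of another or less defined site. Of those 9 members, 6 had a higher mean in Duroc. DNAJC10 (ERdj5) reduces disulfide bonds of misfolded proteins before they are degraded. Its brightest probe set, SNOWBALL_018112_st, gave Duroc values of 7.26, 8.07 and 8.53 (lowest, median, highest) and PiNN values of 6.73, 7.49 and 7.83. Above all PiNN animals lay 7 Duroc animals, whereas Duroc 24, 31 and 32 (7.45, 7.26 and 7.61) lay within the PiNN range. DNAJC10, on chromosome 15 from 88198751 to 88256396, was 1.52-fold higher in Duroc (8.03 ± 0.47 against 7.43 ± 0.32, SD, n = 10 each, difference 0.60, standard error 0.17, adjusted p = 0.0381). This call was close to the threshold. It was lost in 13 of 20 fits with 1 animal left out (Duroc 28, 38, 42, 43, 46, 58 or 59, or PiNN 21, 22, 35, 36, 41 or 49), with adjusted p from 0.0503 to 0.0762. It was also lost by the ANOVA (0.0724), its q-value (0.0551), median centring (0.0592) and without PiNN 49 and 62 (0.0666). The difference fell to 0.39 (adjusted p = 0.0111) once the array background entered as a covariate.

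DNAJC10 carried 3 further probe sets, and they did not give the same value. SNOWBALL_030878_st had the largest difference of all DNAJ probe sets, 1.11 (standard error 0.23, adjusted p = 0.00759), and this call held with any animal left out. Its signals were however below the background mean in all PiNN animals and in 8 Duroc animals, with breed means of 3.19 ± 0.75 and 2.08 ± 0.29 (SD, n = 10 each). Since both means lie under the background level, no fold is given. SNOWBALL_040202_st, well above background, differed by 0.25 (adjusted p = 0.147). The fourth, SNOWBALL_030696_st, was below background in all animals and differed by -0.14 (adjusted p = 0.499).

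DNAJB14 is a membrane J protein of the endoplasmic reticulum that promotes the degradation of misfolded membrane proteins. Its signals (SNOWBALL_011738_st, chromosome 8 from 120567395 to 120623518) were 4.81, 5.15 and 5.46 in Duroc and 4.39, 4.89 and 5.16 in PiNN (lowest, median, highest). The PiNN median was exceeded by 9 Duroc animals, and 5 of them exceeded all PiNN animals. The DNAJB14 difference of 0.40 (standard error 0.11, adjusted p = 0.0428) was the call nearest to the threshold. It was lost without Duroc 24, 38, 42, 43, 46 or 59 or PiNN 19, 21, 22, 35 or 36, with adjusted p from 0.0527 to 0.0879, and also by the ANOVA (0.0589), quantile normalization (0.0534), median centring (0.0700) or the array background as a covariate (0.0749). A further probe set of DNAJB14 lay below background in all animals and differed by -0.12 (adjusted p = 0.568).

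DNAJC1 spans the reticulum membrane and docks at the ribosome. For this gene the probe sets disagreed. SNOWBALL_013441_st gave 5.23, 5.65 and 6.18 in Duroc and 4.52, 5.0 and 5.80 in PiNN, and all 10 Duroc animals lay above the PiNN median. Without PiNN 62 (5.80) the highest PiNN value was 5.30, so only that animal reached into the upper part of the Duroc range. The DNAJC1 difference at this probe set was 0.68 (standard error 0.15, adjusted p = 0.0122) and was called in all 20 fits with an animal left out. At the brighter SNOWBALL_025617_st the difference was 0.06 (standard error 0.11, adjusted p = 0.864), with values of 7.67 to 8.49 in Duroc and 7.80 to 8.29 in PiNN. DNAJC1 lies on chromosome 10 from 52862813 to 53060747.

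The other 5 genes of the reticulum were not called by any probe set. DNAJC3, which binds unfolded proteins in the lumen and is known as an inhibitor of the stress kinase PERK, had 4 probe sets with differences of 0.29, 0.08, 0.65 and 0.16. The largest of these, at SNOWBALL_021707_st, came from Duroc values of 5.36, 6.55 and 7.16 against PiNN values of 5.05, 5.71 and 6.25 and had an adjusted p of 0.0559. It was called with array weights (0.0359), with only probe sets above background (0.0376) and without Duroc 31, 32 or 43 or PiNN 20 or 47 (0.0123 to 0.0446). DNAJB9, which is induced by the unfolded protein response, differed by 0.21 (adjusted p = 0.196) and the lumenal DNAJB11 by 0.13 (adjusted p = 0.759). PiNN 49 held the highest DNAJB11 value of all animals, 8.70, while the next PiNN value was 7.89. DNAJB12, which acts with DNAJB14, differed by -0.15 (adjusted p = 0.475) and DNAJC16 by -0.13 (adjusted p = 0.395).

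**Figure D3:**
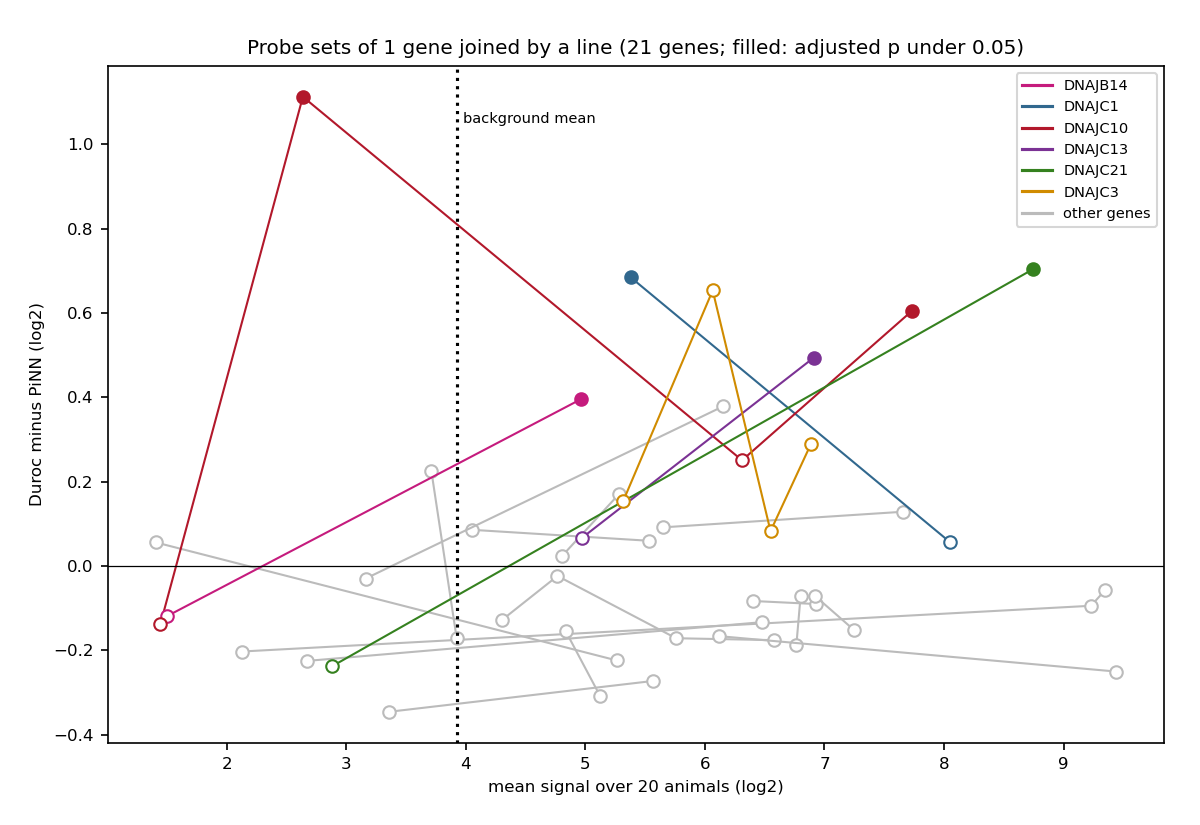
Difference between breeds (Duroc minus PiNN, log2, vertical axis) against the mean signal over 20 animals (log2, horizontal axis) for every probe set of the 21 DNAJ genes with several, each gene joined by a line and filled points marking an adjusted p under 0.05. The 4 probe sets of DNAJC10 run from -0.14 to 1.11, and the brighter probe set of DNAJC1 lies at 0.06 where the dimmer lies at 0.68.

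The gene with the largest difference by its brightest probe set belonged to the nuclear, splicing and ribosomal J proteins. Of these, 1 of 5 was called, against 6.39% of all named genes. DNAJC21 is needed for the maturation of the large ribosomal subunit in the cytosol. Signals of its probe set SNOWBALL_018581_st were 8.49, 9.14 and 9.63 in Duroc (lowest, median, highest) and 8.03, 8.39 and 8.89 in PiNN. All 10 Duroc animals lay above the PiNN median, and 6 lay above every PiNN animal. Duroc 24, 28, 31 and 32 (8.80, 8.81, 8.49 and 8.49) formed the lower end of the breed, below PiNN 19 with 8.89. DNAJC21, on chromosome 16 from 20523770 to 20552048, was thus 1.63-fold higher in Duroc (9.10 ± 0.45 against 8.40 ± 0.25, SD, n = 10 each, difference 0.70, standard error 0.15, adjusted p = 0.00991). No omitted animal removed the call. A further probe set below background in all animals differed by -0.24 (adjusted p = 0.353).

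DNAJC2, which binds the ribosome and assists nascent chains, showed Duroc values of 5.79 to 6.78 and PiNN values of 5.18 to 6.37. Its difference of 0.38 had an adjusted p of 0.170. The remaining genes of the group, the splicing factors DNAJC8 and DNAJC17 and the histone chaperone DNAJC9, differed by 0.17, -0.14 and 0.09, with adjusted p from 0.477 to 0.735.

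Among 4 J proteins of vesicles and endosomes 1 was called, against 6.39% of all named genes. DNAJC13 (RME-8) sorts cargo on early endosomes together with the retromer. Its brightest probe set, SNOWBALL_015652_st, gave tight Duroc values of 6.95, 7.13 and 7.42 and wider PiNN values of 6.18, 6.68 and 7.29 (lowest, median, highest). With the exception of PiNN 47 at 7.29, the PiNN animals (9 of 10) lay below all Duroc animals. DNAJC13, on chromosome 13 from 73573887 to 73707951, was higher in Duroc by 0.49 (7.16 ± 0.14 against 6.66 ± 0.32, SD, n = 10 each, standard error 0.11, adjusted p = 0.0130), and the call held without any single animal. At SNOWBALL_032981_st the DNAJC13 difference was 0.07 (adjusted p = 0.804).

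DNAJC5, the cysteine string protein of secretory vesicles, did not pass the test. Its signals were 8.55, 8.87 and 9.25 in Duroc and 8.84, 9.20 and 9.42 in PiNN, and 9 of 10 Duroc animals lay below the PiNN median, Duroc 32 being the exception. The DNAJC5 difference was -0.30 (standard error 0.09, adjusted p = 0.0560). Without Duroc 31, Duroc 32 or PiNN 20 it had an adjusted p between 0.0215 and 0.0430. DNAJC5 was also called by q-value (0.0404), with only probe sets above background (0.0388), median centring (0.0483) and array weights (0.0223), while quantile normalization gave 0.147. The clathrin-uncoating factor DNAJC6 differed by -0.22 (adjusted p = 0.128), and the brightest probe set of DNAJC5B lay below the background mean, with a difference of 0.01 (adjusted p = 0.988).

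None of the 5 mitochondrial genes was called by limma, and 1, DNAJC30, had an unadjusted p under 0.05. The differences were 0.18 for DNAJC19 and 0.06 for DNAJC15, which belong to the import motor, -0.07 for DNAJA3 and -0.15 for DNAJC11 of the inner membrane contact sites. DNAJC30, which acts on the respiratory chain, came closest with -0.27 (standard error 0.08, adjusted p = 0.0595). Its Duroc values were 5.18, 5.46 and 5.61 and its PiNN values 5.44, 5.63 and 6.0, with no Duroc animal reaching the PiNN median. With Duroc 32 left out its adjusted p was 0.0492, with PiNN 47 left out 0.0369, and by the ANOVA that the methods name it was 0.0453 (q-value 0.0345). It was 0.0415 with only probe sets above background and 0.0403 with array weights. A dim DNAJC30 probe set, below background in all animals, differed by -0.35 (adjusted p = 0.101). DNAJC11 was called, higher in PiNN, in the fit without PiNN 49 and 62, which held its lowest values (5.60 and 5.55).

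Of the 9 members with another or a less defined site, only DNAJC28 was called, against 6.39% of all named genes. Its signals (SNOWBALL_037747_st, chromosome 13 from 197104842 to 197114693) were 5.54, 6.09 and 6.32 in Duroc and 5.24, 5.52 and 5.98 in PiNN. All 10 Duroc animals lay above the PiNN median, though Duroc 24 and 31 (5.54 and 5.56) stood close to it. The DNAJC28 difference was 0.43 (standard error 0.11, adjusted p = 0.0296). The adjusted p was 0.0505 to 0.0613 without Duroc 28, 42, 43, 46, 58 or 59 or PiNN 22, 35 or 36, and 0.0554 without both PiNN 49 and 62. DNAJC18 had the largest difference towards PiNN in this group, -0.31 (adjusted p = 0.133), with Duroc values of 4.51 to 5.37 and PiNN values of 4.88 to 5.66. DNAJC7, which bridges HSP70 and HSP90, differed by 0.28 (adjusted p = 0.440). The other 6 lay between -0.21 (DNAJC14) and 0.32 (DNAJC12), and none passed on all animals. DNAJC14 was called, higher in PiNN, in the fit without PiNN 49 and 62.

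**Figure D4:**
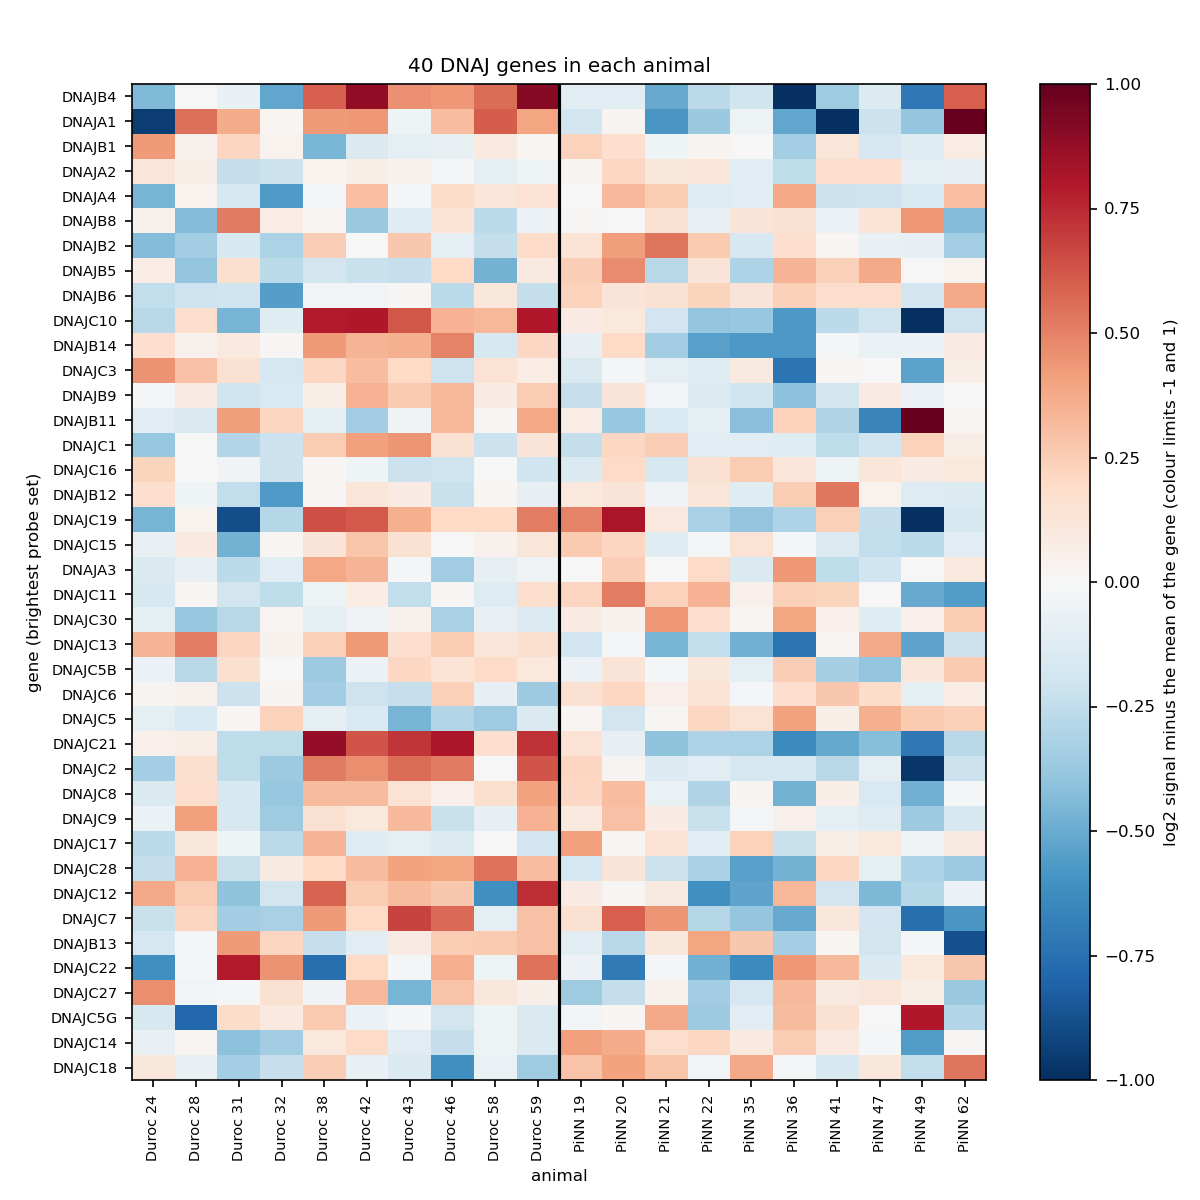
Log2 signal of the brightest probe set of each of the 40 DNAJ genes (rows, grouped by cellular site as in the plot of differences) in each of the 20 animals (columns), less the mean of the gene over all animals, with colours limited to -1 and 1. Duroc 38, 42, 43, 46 and 59 stand out for DNAJC10 and DNAJC21, and PiNN 49 for low DNAJC2, DNAJC10 and DNAJC19 and high DNAJB11.

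J proteins work with HSP70 and its other helpers, so 32 partner genes were listed, of which 22 were measured. Called were 2 of 22 (9.09%), against 6.39% of all named genes, and both act at the endoplasmic reticulum. HSPA13, a small HSP70 relative of microsomes, was higher in Duroc by 0.57 (5.60 ± 0.30 against 5.03 ± 0.34, SD, n = 10 each, adjusted p = 0.0190). SEC63, a J protein of the protein translocon that bears no DNAJ name, was higher in Duroc by 0.44 (7.38 ± 0.32 against 6.94 ± 0.17, SD, n = 10 each, adjusted p = 0.0288). The SEC63 call was lost without Duroc 38, 42, 46 or 59 or PiNN 21, 22 or 36, with adjusted p from 0.0508 to 0.0593. Its other probe sets, SNOWBALL_002662_st and SNOWBALL_034590_st, differed by 0.62 and 0.50 and were not called (limma adjusted p = 0.352 and 0.0794). Of 10 listed HSP70 proteins only 5 were measured (HSPA2, HSPA5, HSPA8, HSPA13 and HSPA14), and HSPA13 alone was called. The rest of the list was not measured. HSPA5 differed by 0.17 (adjusted p = 0.377), the constitutive cytosolic HSPA8 by 0.00 (adjusted p = 0.995), the nucleotide exchange factor HSPH1 by 0.30 (adjusted p = 0.594) and BAG3, which serves chaperone-assisted autophagy in muscle, by -0.12 (adjusted p = 0.806). By the brightest probe set, none of the 10 nucleotide exchange factors and neither of the 2 heat shock factors HSF1 and HSF2 was called. An unadjusted p under 0.05 was found for 0 and 1 of them. BAG5 differed by -0.22 at its brightest probe set (limma adjusted p = 0.383). Its other probe sets differed by -0.27, -0.40 and -0.41, each with an unadjusted p under 0.05 (limma adjusted p = 0.101, 0.0698 and 0.218).

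Within the 20 animals, DNAJA1 followed the heat-inducible HSPH1. Their signals correlated with a Pearson r of 0.89 (Spearman rho 0.83, permutation p = 1e-05 for both, the smallest that 100000 permutations can give, adjusted p = 8e-05 over 8 pairs). The relation held within Duroc (r = 0.84, permutation p = 0.001) and within PiNN (r = 0.94, permutation p = 0.00114), and r was 0.83 without the 2 animals farthest from the median of HSPH1. PiNN 62 had the highest HSPH1 value (8.49) together with the highest DNAJA1 value. Among the 13608 genes other than HSPH1, DNAJA1 ranked number 2 by its r with HSPH1, where the median r of all genes was -0.05. DNAJB4 followed HSPH1 less closely (r = 0.61, rho = 0.68, permutation p = 0.00283 and 0.00132, adjusted 0.00566 and 0.00528, rank 123). After adjustment the DNAJB4 relation did not pass within Duroc (r = 0.52, permutation p = 0.126, adjusted 0.253) or within PiNN (r = 0.71, permutation p = 0.0399, adjusted 0.139). For DNAJA4 r was 0.26 (rho = 0.18, permutation p = 0.277 and 0.436) and for the unmeasurable DNAJB1 -0.04 (rho = -0.03, permutation p = 0.859 and 0.885).

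Of the reticulum genes set against HSPA5, DNAJC10 gave r = 0.64 (rho = 0.63, permutation p = 0.00214 and 0.00333, adjusted 0.00566 and 0.00888) and DNAJB9 r = 0.63 (rho = 0.59, permutation p = 0.0028 and 0.00777, adjusted 0.00566 and 0.0155). Neither passed within a single breed, where r lay between 0.47 and 0.63. Without the 2 animals farthest from the median of HSPA5, r was 0.55 for DNAJC10 (permutation p = 0.0181) and 0.46 for DNAJB9 (permutation p = 0.0578). By r with HSPA5, DNAJC10 ranked number 233 and DNAJB9 number 263 of 13608 genes. Other members stood higher, DNAJB14 at number 57 (r = 0.70) and the cytosolic DNAJB4 at number 71 (r = 0.69), so the relation was not particular to the pairs chosen. Quantile normalization of the arrays took DNAJC10 to r = 0.26 (permutation p = 0.272, adjusted 0.359) and DNAJB9 to 0.55 (permutation p = 0.0122, adjusted 0.0326). With the array background removed, r was 0.33 for DNAJC10 (permutation p = 0.147, adjusted 0.294) and 0.43 for DNAJB9 (permutation p = 0.0608, adjusted 0.162). The DNAJC10 relation thus depended on both kinds of scaling, and the DNAJB9 relation on the array background. For DNAJC3 r was 0.45 (rho = 0.41, permutation p = 0.0438 and 0.0732, adjusted 0.0702 and 0.117) and for DNAJB11 -0.07 (rho = -0.04, permutation p = 0.757 and 0.855).

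**Figure D5:**
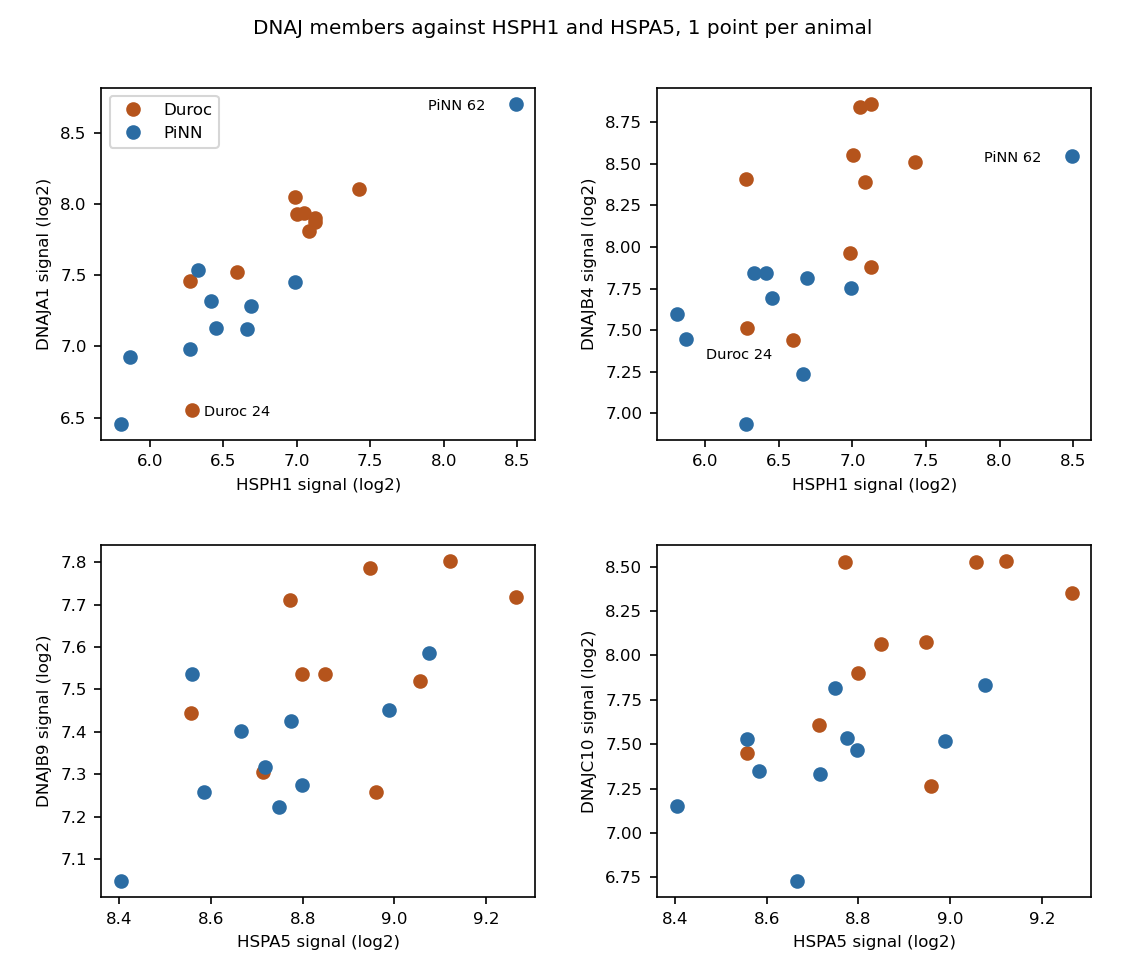
Log2 signals of DNAJA1 and DNAJB4 against HSPH1 and of DNAJB9 and DNAJC10 against HSPA5, with 1 point per animal coloured by breed. The points of DNAJA1 follow HSPH1 in both breeds from PiNN 41 at the lower end to PiNN 62 at the upper end, and Duroc 24 lies below the other animals of similar HSPH1.

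Of the 20 animals 7 (Duroc 38, 42, 43 and 58, PiNN 41, 47 and 49) also had a methylation library in the same study, as matched by animal number. The study states that all its Duroc and PiNN library animals were among those with arrays. A further Duroc library carries a number that no array has, and this was not resolved. Fitted on these 7 animals, DNAJC21 differed by 1.15, DNAJC10 by 1.13, DNAJB4 by 1.03, DNAJC13 by 0.28 and DNAJB6 by -0.04. On the other 13 animals the differences were 0.46, 0.30, 0.28, 0.59 and -0.50. Called were 3 DNAJ probe sets in either subset, against 0.847% of all probe sets in the 7 animals and 1.27% in the 13. An interaction of breed with the presence of a methylation library, chosen after the data had been seen, was called for none of the 68 DNAJ probe sets by limma, with 14 at an unadjusted p under 0.05. Over all probe sets 2 were called and 11.9% had an unadjusted p under 0.05. No array date or batch was used, since the value table carries none.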

How the data were processed

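Total RNA of longissimus dorsi from 20 pigs was hybridised to Affymetrix Porcine Snowball arrays, 1 per animal. The deposited values are log2 probe set signals. GCOS 1.1.1 is named in the submitters' processing notes. How the values were summarized and normalized is not given in the sources used here. All 20 columns were used. Of 47845 rows, the 45922 for porcine transcripts entered the tests, and 1923 rows for controls, background or other species were set aside. Symbols came from the platform annotation, with 1 symbol for 26058 tested probe sets, none for 19864 and several for 0. Gene coordinates are those of RefSeq on Sscrofa11.1. The number of arrays limits the precision.

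Breeds were compared with limma 3.58.1 in R 4.3.3 (lmFit, then eBayes, with a single term for breed) with Benjamini-Hochberg adjustment over all tested probe sets at 0.05. The study's methods name an ANOVA with q-values, which was run as an alternative. Correlations were tested with 100000 random permutations of the animals. Ranks and the adjustment over the 8 pairs came from scipy 1.17.1. The procedure was tested on simulated data.

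Members and gene lists were chosen with earlier results of these data known. Named were all probe sets of genes with a called probe set, DNAJC5 and DNAJC10, the cytosolic and reticulum genes, the 5 genes with the largest difference on each side, the called partner genes and HSPA5, HSPA8, HSPH1 and BAG3. The DNAJC3 probe sets beside its brightest and other members named singly were chosen after their values were seen. Alternatives were the ANOVA with Benjamini-Hochberg, unadjusted p or Storey q-values (lambda 0.5), only probe sets above background, quantile normalization, median centring, array weights, robust fitting with a variance trend, the array background as a covariate, removal of PiNN 49 and 62, animals with or without a methylation library, and removal of each animal in turn.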

Additional observations from a re-analysis of the deposited data

Results flagged for a closer look

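In 19 of 180 groups of 10 animals (each of the 68 DNAJ probe sets and the brightest probe set of each of the 22 partner genes, per breed), 1 animal stood apart from the other 9 by a gap above Dixon's critical value. Chance flags about 1 in 20 groups. Probe sets of a gene and genes of an animal share arrays, so the groups are not independent. No cause was tested.

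PiNN 49, the array with the highest background (4.21), held the lowest signal of its breed for DNAJB6 (5.97), DNAJB12 (SNOWBALL_024461_st, 6.27), DNAJC14 (6.34), DNAJC2 (5.18) and the nucleotide exchange factor BAG1 (6.71), and the highest for DNAJB11 (8.70). PiNN 62 held the highest signal for DNAJA1 (8.70), HSPH1 (8.49), its relative HSPA4L (5.22), the heat shock factor HSF2 (6.53) and the dim DNAJC10 probe set SNOWBALL_030878_st (2.76). Duroc 24 was lowest of its breed for DNAJA1 (6.56), HSPA4L (2.96), the mitochondrial exchange factor GRPEL1 (5.19) and HYOU1 of the endoplasmic reticulum (5.83), and highest for DNAJC16 (6.71). Single values stood apart in Duroc 31 for DNAJC15 (5.06, low), in Duroc 28 for DNAJC5G (3.14, low and under the background mean) and in PiNN 19 for BAG5 (7.44, high).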

How the results depend on the processing

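Called DNAJ probe sets, 8 in the reported fit, numbered 21 at an unadjusted ANOVA p and 3 on animals with and 3 on animals without a methylation library. Called DNAJ genes, 6 as reported, numbered 16, 3 and 2 in these settings. For the partner genes the 2 calls became 4 with unadjusted p, 4 with array background as a covariate, and 0 and 1 in the library subsets. Over all probe sets the 1917 calls became 7836 with unadjusted p, 3135 with array weights, and 389 and 585 in the subsets. The other alternatives stayed within 1.5 times. With single animals left out the counts ran from 4 to 12 DNAJ probe sets, 2 to 9 DNAJ genes, 1 to 3 partner genes and 1174 to 2489 probe sets in all. DNAJC21, DNAJC13 (SNOWBALL_015652_st) and DNAJC1 (SNOWBALL_013441_st) were called under every alternative fit except in the library subsets, where DNAJC21 was called with and DNAJC13 without a library.

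Signs turned for uncalled probe sets alone. With array background as a covariate these were DNAJC1 SNOWBALL_025617_st (-0.0089), DNAJB8 (0.0011) and HSPA8 (-0.053). On animals with a library they were DNAJC13 SNOWBALL_032981_st (-0.20), DNAJA4 (0.29), DNAJB1 (-0.090), DNAJB11 (-0.14), DNAJB2 (0.11), DNAJC18 (0.088) and BAG3 (0.76), and on animals without one DNAJC1 SNOWBALL_025617_st (-0.092), DNAJB8 (0.054) and HSPA8 (-0.13). DNAJB1 turned with array weights (-0.021), and HSPA8 with quantile normalization (-0.0234) and median centring (-0.00595). With an animal left out DNAJB1 ran from -0.032 to 0.066 and HSPA8 from -0.042 to 0.047. The causes were not tested.

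Correlations lost their adjusted p under 0.05 within Duroc and PiNN for DNAJB4 (0.52 and 0.71), DNAJB9 (0.47 and 0.63) and DNAJC10 (0.55 and 0.54), for DNAJB9 without 2 animals (0.46) or background removed (0.43), and for DNAJC10 after quantile normalization (0.26) or background removed (0.33). They turned sign for DNAJB1 within PiNN (0.060), for DNAJC3 within Duroc (-0.0020) and for DNAJB11 without PiNN 49 and 62 (0.035), after quantile normalization (0.33) or background removed (0.20). No paired analysis was possible because the breeds are made up of different animals with no stated pairing.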
